A study of Mus musculus with 12 samples.

Results

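Trbv3 and Trbv17, listed as V3 and V17 in the deposited tables, are variable gene segments of the mouse T cell receptor β chain. Their clonotypes were taken from 12 TCR libraries of CD8+ T cells by the V region assigned to each β chain (TRBC) clonotype, and each gene is described on its own. A clonotype is a CDR3 nucleotide sequence with its V and J regions in 1 library, and its abundance is its number of unique molecular identifiers (UMIs, the tags of single cDNA molecules) with at least 3 reads. Trbv3 was assigned to 76270 of the 968766 TRBC clonotypes (7.87%) and to 142846 of 1791590 TRBC UMIs (7.97%). Trbv17 was assigned to 38066 clonotypes (3.93%) and 80040 UMIs (4.47%). A further 72 clonotypes were left between Trbv3 and other V regions and 9 between Trbv17 and others, and these are not counted. The genes were selected on measured values of these libraries, the sizes of their leading clonotypes in the BF10 tumor (Trbv3) and in the tumor-draining lymph nodes (tdLNs) of αCSF1R (Trbv3) and control IgG (Trbv17), so those sizes are a description.

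The libraries came from wild-type mice bearing HNSCC/Q1-2 tumors, a syngeneic head and neck carcinoma line in the C57BL/6 background per the study's methods. Mice received control IgG, IL-10-Fc (interleukin-10 fused to an antibody Fc), αCSF1R (an antibody that blocks the macrophage receptor CSF1R) or BF10 (that antibody fused to interleukin-10). The labels give 30 mg/kg as an equivalent dose of each agent, in 3 doses at intervals of 3 days, whereas the study's methods for tumor growth give doses that differ between the agents. Tumor, spleen and tdLN gave 1 library each per treatment, made from mixed RNA of 3 mice. No replicate was available and no difference between treatments could be tested. A clonotype found under a single treatment may be particular to those mice, and treatment and mice cannot be told apart. The labels name CD8 T cells as the cell type and give no age. The libraries hold only receptor transcripts, so the cell type was not checked against other markers.

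A β chain gene is assembled in the thymus from a V, a D and a J segment. Bases are trimmed from the segment ends and others are added between them, and the joined stretch encodes the CDR3, the loop that meets the peptide held by an MHC molecule. CD8+ T cells that leave the thymus with different junctions can therefore carry the same CDR3 residues in different nucleotide sequences. A T cell that divides passes its own nucleotide sequence on to its progeny, and CDR3s that need few added bases are known to recur between animals.

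The germline ends of the genes set the first residues of their CDR3s. Trbv3 lies on chromosome 6 of GRCm38 at chr6:41048290-41048828 on the plus strand and Trbv17 at chr6:41163062-41163556 on the same strand, each annotated as a TR V gene of 2 exons. Exon 2, which encodes the variable domain, spans chr6:41048527-41048828 in Trbv3 and chr6:41163262-41163556 in Trbv17. The part of each exon from the conserved cysteine codon to its end (chr6:41048808-41048828 and chr6:41163540-41163556, GENCODE annotation) reads 5′ to 3′ as follows, and the genes first differ at base 6.
Trbv3 germline end: tgtgccagcagcttagccaca
Trbv17 germline end: tgtgctagcagtagaga

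The CDR3 sequences were compared with these ends alone, not with those of other TRBV genes. V regions had been assigned from the same reads, so the comparison is no check of the labels. Among 67180 distinct CDR3 sequences listed under Trbv3, 99.5% matched the Trbv3 end over a longer stretch than the Trbv17 end. Among 35252 listed under Trbv17, 99.3% matched the Trbv17 end over the longer stretch. The median Trbv3 clonotype kept 13 germline V bases and 19 germline J bases with 10 bases between them that matched neither, and the median Trbv17 clonotype kept 14 and 19 with 10 between. Clonotypes with no base between were rare for either gene, at 238 of 76236 (0.312%) for Trbv3 and 182 of 38038 (0.478%) for Trbv17. These counts take the longest match from each end, so an added base that equals the germline base by chance is counted as germline.

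The sequences on which the Trbv17 results turn are the nucleotide encodings of a single CDR3 of 11 residues, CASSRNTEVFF, joined to Trbj1-1. The list gives 7 of the abundant encodings from the cysteine codon to the phenylalanine codon of Trbj1-1, lettered in the order of their UMIs. Capitals mark the bases that match neither the Trbv17 end nor the Trbj1-1 start.
Encoding A: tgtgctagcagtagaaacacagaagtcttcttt
Encoding B: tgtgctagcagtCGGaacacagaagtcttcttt
Encoding C: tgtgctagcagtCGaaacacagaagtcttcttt
Encoding D: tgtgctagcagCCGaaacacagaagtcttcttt
Encoding E: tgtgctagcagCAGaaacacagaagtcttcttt
Encoding F: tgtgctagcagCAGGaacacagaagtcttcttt
Encoding G: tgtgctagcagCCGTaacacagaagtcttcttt

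Encoding A held no base outside the germline segments, with 15 bases of Trbv17 followed by 18 of Trbj1-1. The other encodings shown held 2 to 4 such bases, and all 7 differed within the arginine codon or the serine codon before it.

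The Trbv3 sequences shown are the leading Trbv3 clonotypes of the 4 tumors, of 3 tdLNs and of the αCSF1R spleen, with capitals for bases outside the germline segments. The leading clonotype of the BF10 tdLN was that of the BF10 tumor.
Tumor BF10 and tdLN BF10, Trbj2-7: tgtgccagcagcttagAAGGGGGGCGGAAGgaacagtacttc
Tumor αCSF1R, Trbj1-1: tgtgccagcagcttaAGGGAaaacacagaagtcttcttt
Tumor IL-10-Fc, Trbj2-7: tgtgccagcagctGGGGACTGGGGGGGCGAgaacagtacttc
Tumor control IgG, Trbj2-5: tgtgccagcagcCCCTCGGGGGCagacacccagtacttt
tdLN control IgG, Trbj2-7: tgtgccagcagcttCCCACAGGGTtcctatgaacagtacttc
tdLN IL-10-Fc, Trbj2-7: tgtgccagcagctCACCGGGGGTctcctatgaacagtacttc
tdLN αCSF1R, Trbj2-7: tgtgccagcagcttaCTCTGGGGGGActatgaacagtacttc
Spleen αCSF1R, Trbj1-1: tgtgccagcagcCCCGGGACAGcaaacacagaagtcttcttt

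The libraries held 32784 to 175080 TRBC UMIs in tumors, 150372 to 166869 in spleens and 124488 to 210616 in tdLNs. The αCSF1R and control IgG tumors listed the fewest TRBC clonotypes, 2493 and 9466, against 54779 for IL-10-Fc and 90267 for BF10. The floor set here, 3 UMIs, lay between 0.00142% and 0.00915% of TRBC UMIs. Smaller counts were listed too, and those given below lie under this floor. Intervals below are 95% intervals that cover counting error only, and UMIs of 1 cell are not independent cells.

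The share of Trbv3 was lowest in the control IgG tumor and highest in the tdLNs. A share of UMIs can differ through the number of cells or through the receptor RNA per cell, which cannot be told apart in these bulk libraries. In tumors, its share of TRBC UMIs was 3.37% with control IgG (Wilson interval 3.26% to 3.48%), 7.74% with IL-10-Fc (7.59% to 7.88%), 5.11% with αCSF1R (4.88% to 5.35%) and 7.75% with BF10 (7.63% to 7.88%). In spleens it was 7.87% with control IgG, 7.74% with IL-10-Fc, 8.57% with αCSF1R and 6.57% with BF10. In tdLNs it was 9.39%, 9.05%, 9.23% and 8.82% in the same order. The 4 tdLNs thus held the highest shares, the 2 tumors with the fewest clonotypes the lowest, and the intervals of IL-10-Fc and BF10 tumors overlapped each other and that of the IL-10-Fc spleen.

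Counted by clonotypes, Trbv3 stayed within a 1.39-fold range over the 12 libraries, from 6.34% to 8.82%, against a 2.79-fold range by UMIs. In tumors, its share of clonotypes was 6.43% with control IgG, 7.43% with IL-10-Fc, 6.34% with αCSF1R and 7.06% with BF10. The control IgG tumor was the library in which Trbv3 clonotypes were smallest for their number: they held 5.76 UMIs each on average, and the other TRBC clonotypes of that library 11.4. In the 8 spleens and tdLNs, Trbv3 clonotypes held 1.46 to 2.61 UMIs each, slightly above the 1.34 to 2.38 of other clonotypes.

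Trbv17 showed the opposite order in tumors, with its highest share of all 12 libraries in the control IgG tumor. Its share of TRBC UMIs in tumors was 9.26% with control IgG (9.09% to 9.44%), 4.52% with IL-10-Fc (4.41% to 4.64%), 5.39% with αCSF1R (5.15% to 5.64%) and 4.39% with BF10 (4.30% to 4.49%). In spleens it was 3.87%, 4.2%, 4.14% and 4.03% in the same order of treatments, and in tdLNs 3.71%, 3.66%, 4.37% and 4.43%. Outside the control IgG and αCSF1R tumors, all shares lay between 3.66% and 4.52%, and the intervals of neighbours in that order overlapped.

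By clonotypes, the control IgG tumor did not stand apart. Trbv17 made up 4.22% of TRBC clonotypes there (3.83% to 4.64%), 3.89% with IL-10-Fc, 4.65% with αCSF1R and 4.09% with BF10, and 3.35% to 4.33% in the spleens and tdLNs. Trbv17 ranked 3 among the TRBV genes of the control IgG tumor by UMIs and 13 by clonotypes. Its clonotypes there held 24.2 UMIs each on average, against 10.4 for other TRBC clonotypes.

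**Figure D1:**
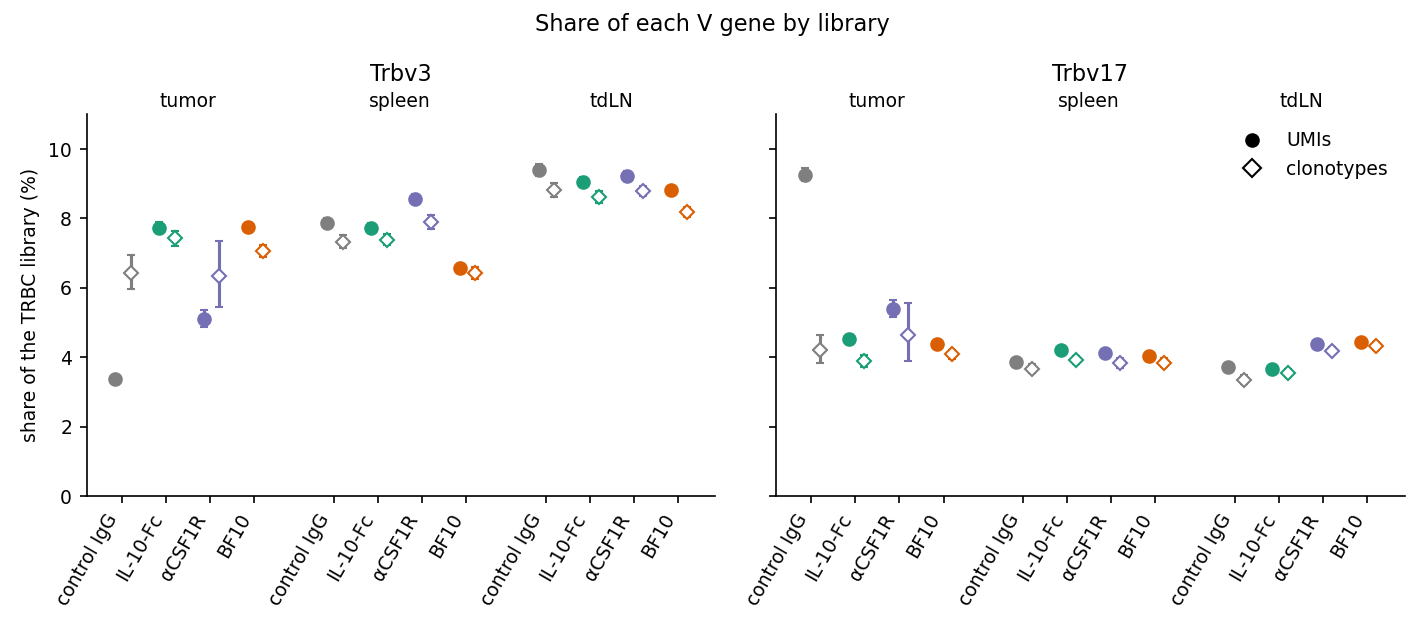
Share of each TRBC library (y axis, %) assigned to Trbv3 (left) and Trbv17 (right) in 4 tumors, 4 spleens and 4 tdLNs, by UMIs (filled circles) and by clonotypes (open diamonds), with 95% Wilson intervals. In the control IgG tumor, the UMI share of Trbv3 (3.37%) lies below its clonotype share (6.43%) and that of Trbv17 (9.26%) above its own (4.22%).

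The shares of these genes with BF10 were set against those with control IgG in each tissue, as a description of 1 library each. In tumors, the Trbv3 share was 2.30 times that of control IgG (interval 2.22 to 2.38) and the Trbv17 share 0.474 times (0.460 to 0.488). Both genes were among the 15 of 22 TRBV genes (68.2%) whose shares lay at least 1.5-fold apart between these tumors, so such a shift was not particular to them. In spleens, the ratio was 0.835 for Trbv3 (0.814 to 0.857) and 1.04 for Trbv17 (1.0 to 1.08), and 0 of 22 genes (0%) passed 1.5-fold. In tdLNs, it was 0.939 for Trbv3 (0.918 to 0.960) and 1.20 for Trbv17 (1.15 to 1.24), and 1 of 23 genes (4.35%) passed, neither of these. By clonotypes, the tumor ratios were 1.10 for Trbv3 (1.01 to 1.19) and 0.970 for Trbv17 (0.877 to 1.07). When clonotypes of 1 UMI were left out, the Trbv3 ratio in tdLNs was 1.01 (0.982 to 1.04), on the other side of 1.

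A single CDR3 held most of the Trbv17 UMIs of the control IgG tumor, and without it the Trbv17 share there lay among those of the other tumors. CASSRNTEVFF with Trbj1-1 held 5732 of the 9637 Trbv17 UMIs of the control IgG tumor (59.5%). It took 5.51% of all TRBC UMIs there (5.37% to 5.65%), 1.99% in the αCSF1R tumor (1.85% to 2.15%), 0.356% in the IL-10-Fc tumor (0.325% to 0.390%) and 0.145% in the BF10 tumor (0.128% to 0.164%). Without this CDR3, which was singled out after its values were seen, Trbv17 held 3.97% of the remaining TRBC UMIs in the control IgG tumor (3.85% to 4.10%), 4.18% with IL-10-Fc, 3.46% with αCSF1R and 4.25% with BF10. The ratio of BF10 to control IgG in tumors then turned from 0.474 to 1.07 (1.03 to 1.11).

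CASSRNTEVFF was the only CDR3 of either gene listed in all 12 libraries. In tdLNs, it took 0.0562% of TRBC UMIs with control IgG (70 UMIs), 0.0648% with IL-10-Fc (120 UMIs), 0.0166% with αCSF1R (35 UMIs) and 0.0196% with BF10 (40 UMIs). In spleens, it had 2, 9, 3 and 3 UMIs, or 0.00130% to 0.00539%. Every tumor therefore lay above every tdLN and every tdLN above every spleen, and the intervals of the lowest tumor and the highest tdLN did not overlap. All spleens but that of IL-10-Fc were at or under 3 UMIs.

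Among all combinations of V, J and CDR3 residues, it ranked 2 of 8926 by UMIs in the control IgG tumor, 10 of 2331 in the αCSF1R tumor, 4 of 51589 in the IL-10-Fc tumor and 3 of 83269 in the BF10 tumor. It ranked 11 and 5 in the control IgG and IL-10-Fc tdLNs, 83 and 51 in the αCSF1R and BF10 tdLNs, and between 279 and 18855 in spleens. The same residues under other V regions held 0 to 11 UMIs per library.

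Several encodings of the CDR3 were abundant at the same time. The control IgG tumor listed 24 encodings, the αCSF1R and IL-10-Fc tumors 7 each and the BF10 tumor 3. Merging sequences 1 base apart with at least a 10-fold difference in UMIs left 8, 3, 2 and 2. The 8 of the control IgG tumor were the most of any CDR3 in that library, and the 3 of the αCSF1R tumor were the most in that library, a number shared by 2 CDR3s. In the IL-10-Fc and BF10 tumors other CDR3s reached 9 encodings.

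The tumors differed in which encodings they held. Encoding B had 1843 UMIs in the control IgG tumor, 1 in the IL-10-Fc tumor, 5 in the IL-10-Fc tdLN, 1 in the BF10 tdLN and none in the remaining 8 libraries, the control IgG tdLN included. Encoding F had 265 UMIs in the αCSF1R tumor, 9 in the αCSF1R tdLN, 8 in the IL-10-Fc tdLN, 4 in the IL-10-Fc tumor and 1 in the control IgG tumor. Encoding C was listed only in the control IgG tumor, with 568 UMIs. Whether the few UMIs of an encoding in other libraries were cells of those mice or carry-over between libraries was not tested.

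Encoding A, the one made only of germline bases, was listed in 11 of the 12 libraries. It had 924, 384, 233 and 199 UMIs in the 4 tumors (in the order of treatments used above), 29, 95, 11 and 23 in the tdLNs, and 1, 6, 3 and 0 in the spleens. Encoding A led in the IL-10-Fc and BF10 tumors, where it made up most UMIs of the CDR3, and encodings B and F led in the control IgG and αCSF1R tumors.

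**Figure D2:**
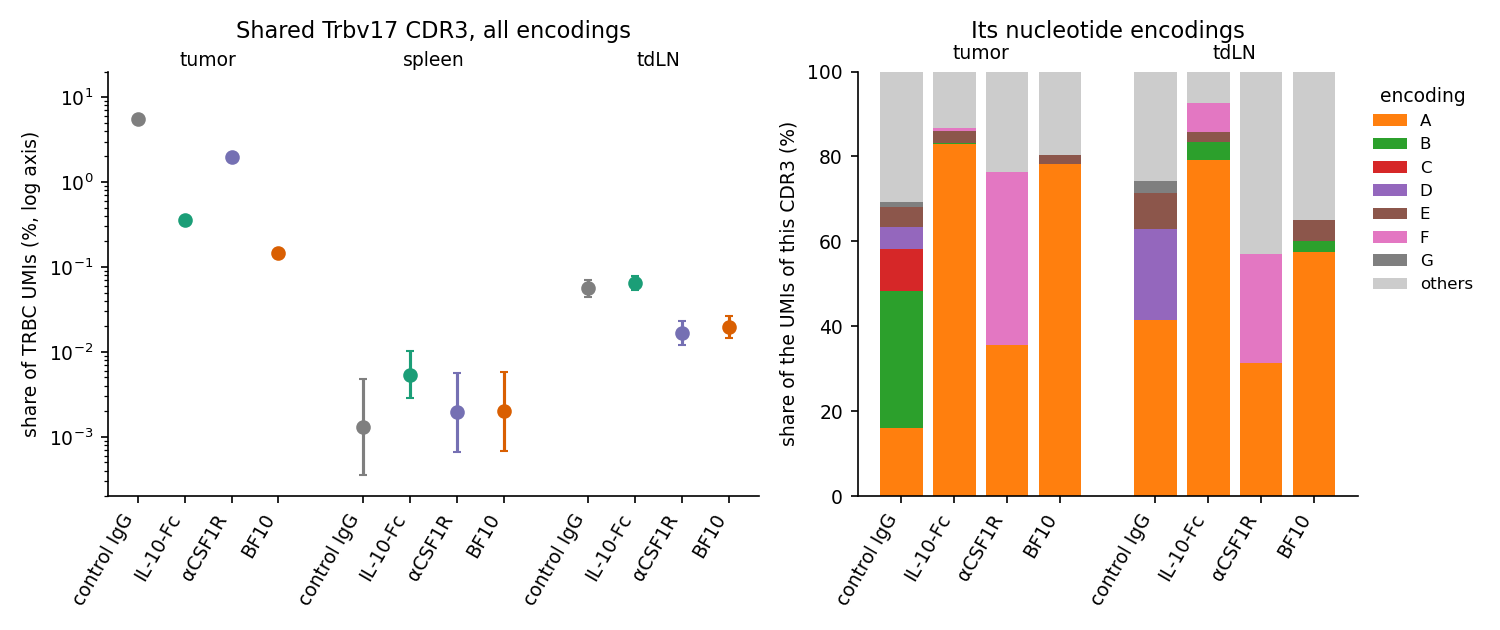
Left, share of TRBC UMIs (y axis, %, log scale) in the Trbv17 CDR3 listed in all 12 libraries, with 95% Wilson intervals; right, share of the UMIs of that CDR3 in each of 7 encodings (A to G) and in all others together, for tumors and tdLNs. The share falls from tumors (0.145% to 5.51%) to tdLNs (0.0166% to 0.0648%) and spleens (0.00130% to 0.00539%), and encoding B is large only in the control IgG tumor.

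Trbv3 held no such CDR3. None of its 50252 CDR3 residue sequences was listed in 12 libraries and 9 were listed in 11, against 1 of 28521 (0.00351%) in 12 libraries and 5 in 11 for Trbv17. Of 595803 CDR3 sequences of other TRBV genes, 18 (0.00302%) were listed in all 12. Counts this small do not tell the genes apart, and the αCSF1R tumor listed only 158 Trbv3 and 116 Trbv17 clonotypes. The most widely listed Trbv3 CDR3s were one of 14 residues, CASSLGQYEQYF and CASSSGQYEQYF, all with Trbj2-7, in 13, 15 and 5 encodings. They stayed small, at 114, 97 and 83 UMIs over all libraries and at most 0.0153% of a library. After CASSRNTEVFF, the next Trbv17 CDR3s were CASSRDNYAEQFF with Trbj2-1 and a CDR3 of 15 residues with Trbj2-4, both in 11 libraries, with 80 and 70 UMIs.

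The leading Trbv3 clonotype of each tumor, counted by nucleotide sequence, was listed under a single treatment. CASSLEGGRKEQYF (tumor BF10 sequence above) had 296 UMIs in the BF10 tumor, 126 in the BF10 tdLN, 3 in the BF10 spleen and none in the other 9 libraries. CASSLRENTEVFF had 402 UMIs in the αCSF1R tumor, 24% of the Trbv3 UMIs there, and 13 in the αCSF1R tdLN. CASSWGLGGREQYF had 289 UMIs in the IL-10-Fc tumor and 33 in the IL-10-Fc tdLN. In the control IgG tumor the largest Trbv3 clonotype, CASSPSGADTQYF, had 60 UMIs, with 2 in the control IgG tdLN. None of these 4 was listed under another treatment. Most CDR3s were narrowly listed: 80.4% of Trbv3 CDR3 residue sequences, and 83.0% of those of other TRBV genes, were listed in a single library. Listing under a single treatment is therefore not particular to these leaders.

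The leading Trbv3 clonotypes of the remaining tdLNs were absent from tumors, as were most Trbv3 clonotypes of these tdLNs. At most 3.78% of the Trbv3 clonotypes of such a tdLN were listed in any 1 tumor. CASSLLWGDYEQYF had 156 UMIs in the αCSF1R tdLN and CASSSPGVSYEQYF 134 in the IL-10-Fc tdLN, each in no other library. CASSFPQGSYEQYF had 101 UMIs in the control IgG tdLN and 3 in the control IgG spleen. The leader of the αCSF1R spleen, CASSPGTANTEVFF, had 117 UMIs there and 89 in the αCSF1R tumor, with 1 to 5 UMIs in each of 6 other libraries. In the remaining spleens the largest Trbv3 clonotype had 15 to 22 UMIs. That of the IL-10-Fc spleen, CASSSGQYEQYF, was listed in 9 libraries.

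Trbv17 leaders of spleens and tdLNs likewise stayed mostly within 1 treatment. Of all Trbv17 CDR3 residue sequences, 85.5% were listed in a single library. In the control IgG tdLN, a Trbj2-7 clonotype of 16 residues led with 147 UMIs and had 5 in the control IgG tumor. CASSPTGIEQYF with Trbj2-7 had 134 UMIs in the BF10 tdLN and 28 in the BF10 tumor. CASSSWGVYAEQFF with Trbj2-1 had 98 UMIs in the αCSF1R tdLN and was in no other library. The leaders of the spleens had 9 to 37 UMIs. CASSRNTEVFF, by encoding A, led the IL-10-Fc tdLN with 95 UMIs.

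Clonotypes that held at least 0.1% of TRBC UMIs numbered 76 in the control IgG tumor, 76 in the αCSF1R tumor, 23 in the IL-10-Fc tumor and 3 in the BF10 tumor. Trbv3 had 0, 7, 2 and 1 of these and Trbv17 had 10, 7, 2 and 1. In the control IgG tumor, the 10 Trbv17 clonotypes together took 7.0% of TRBC UMIs, and 6 of them were encodings of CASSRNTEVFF. The others, which fall outside the rule for naming and were chosen after their values were seen, were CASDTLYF with Trbj1-3 (799 UMIs), a CDR3 of 14 residues with Trbj1-3 (492), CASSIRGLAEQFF with Trbj2-1 (185) and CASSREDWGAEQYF with Trbj2-7 (181).

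A family of Trbv17 CDR3s with Trbj2-3 that end in GRAETLYF, also chosen after its values were seen, held several of the larger clonotypes of the IL-10-Fc and αCSF1R tumors. CDR3s of the form CASxxGRAETLYF had 329 UMIs in the IL-10-Fc tumor (5.59% of Trbv17 UMIs), 193 in the αCSF1R tumor (10.9%), 1 in the BF10 tumor and 0 in the control IgG tumor. In tdLNs they had 3 UMIs with control IgG, 55 with IL-10-Fc, 32 with αCSF1R and 21 with BF10, and 1 to 6 in spleens. The same form under all other V regions together had 0 to 34 UMIs per library. The 4 clonotypes with the most UMIs in tumors are shown, with capitals for bases outside the germline segments; they differ in the bases that encode the same glycine and arginine.
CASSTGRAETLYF: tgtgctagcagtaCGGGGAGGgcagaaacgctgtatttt
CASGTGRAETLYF: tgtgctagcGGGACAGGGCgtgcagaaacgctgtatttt
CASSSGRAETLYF: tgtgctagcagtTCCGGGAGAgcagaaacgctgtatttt
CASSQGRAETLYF: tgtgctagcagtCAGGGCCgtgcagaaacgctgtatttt

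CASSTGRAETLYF, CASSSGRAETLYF and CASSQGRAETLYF in these encodings had 169, 123 and 35 UMIs in the IL-10-Fc tumor and 21, 4 and 5 in the IL-10-Fc tdLN, and none elsewhere. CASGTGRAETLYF had 172 UMIs in the αCSF1R tumor and none elsewhere. A further encoding of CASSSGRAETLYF had 20 UMIs in the αCSF1R tumor, 3 in the αCSF1R spleen and 19 in the αCSF1R tdLN. That CDR3 was therefore listed in both tumors. The ending defined the family, and most of its bases are germline Trbj2-3, so its recurrence is a description only.

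J segments pair with a V gene at the D-J and V-DJ joining steps, and the Trbj1 and Trbj2 clusters lie downstream of their own D segments. Trbj2-7 was the most frequent partner of either gene, at a median over the 12 libraries of 21% of Trbv3 clonotypes (range 19.0% to 24.1%) and 23.1% of Trbv17 clonotypes (13.8% to 24.5%). Trbj1-6 was the segment most depleted relative to other TRBC clonotypes. It joined 0.877% of Trbv3 clonotypes against 2.83% of others, a median ratio of 0.320 (range 0.199 to 0.371), and 1.21% of Trbv17 clonotypes, a ratio of 0.455 (0.241 to 0.602). In all 12 libraries it was below the level in other clonotypes for both genes.

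The segments most enriched differed between the genes. For Trbv3 it was Trbj2-5, with a median ratio of 1.21 and a higher share than other clonotypes in 11 of 12 libraries. For Trbv17 it was Trbj2-2, with a median ratio of 1.45 (1.28 to 1.66) and a higher share in 12 of 12. Trbv17 also ran below other clonotypes for Trbj1-2 in all 12 libraries, at a ratio of 0.524 (0.275 to 0.623), where Trbv3 had a ratio of 1.07.

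As a whole, the Trbj2 cluster supplied more of the clonotypes of both genes than of others, and more so for Trbv17. The Trbj2 share of Trbv3 clonotypes exceeded that of other TRBC clonotypes by a median of 4.01 percentage points, with a range of -3.33 to 7.39, and was higher in 11 of 12 libraries. For Trbv17 the median difference was 9.42 points, with a range of -2.07 to 12.5, and the share was higher in 10 of 12 libraries. The 2 exceptions for Trbv17 were the control IgG tumor (64.4% of its clonotypes against 66.5% of others) and the αCSF1R tumor (63.8% against 65.2%). Neither was an exception among clonotypes with at least 2 UMIs, where the lowest of the 12 differences was 3.65 points, or among those with a UMI of at least 7 reads, where it was 4.21 points. Weighted by UMIs, the lowest was -39.8 points. In the other 10 libraries the share of clonotypes lay between 77.4% and 80.1%.

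Trbj1-1, the segment of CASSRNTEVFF, made up 22.3% of Trbv17 clonotypes and 62.4% of Trbv17 UMIs in the control IgG tumor, 25% and 42.0% in the αCSF1R tumor, 8.36% and 14.7% in the IL-10-Fc tumor and 7.15% and 10.3% in the BF10 tumor. The CDR3 accounted for 95.4%, 88.0%, 53.3% and 32.2% of these Trbj1-1 UMIs in the same order. For Trbv3, Trbj1-1 reached 17.7% of clonotypes and 35.8% of UMIs in the αCSF1R tumor, whose leading Trbv3 clonotype used it, and 6.17% to 8.21% of clonotypes in the other tumors.

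**Figure D3:**
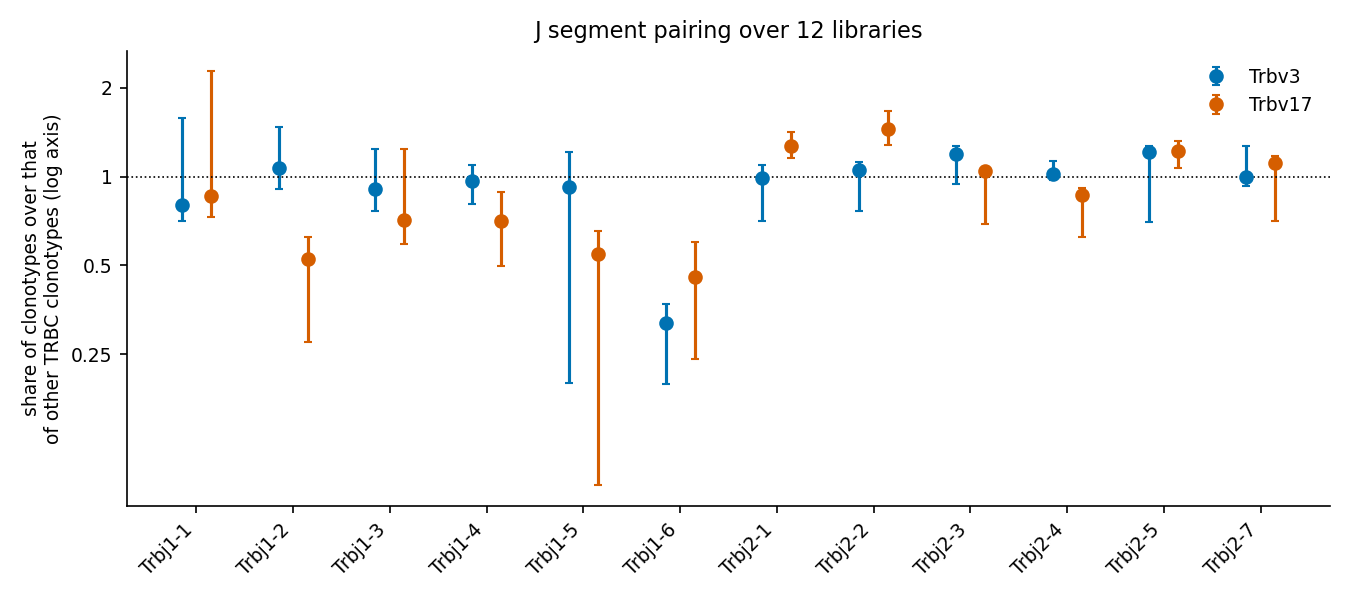
Share of the clonotypes of Trbv3 and Trbv17 with each Trbj segment, divided by the share among all other TRBC clonotypes of the same library (y axis, log scale); points are medians and bars the range over 12 libraries. Trbj1-6 lies lowest for Trbv3 (0.320) and for Trbv17 (0.455), and Trbj2-2 highest for Trbv17 (1.45).

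CDR3s of both genes were close in length to those of other TRBC clonotypes. The mean length of Trbv3 clonotypes lay between 13.8 and 14.2 residues and exceeded that of other clonotypes in all 12 libraries, by a median of 0.203 residues (range 0.0267 to 0.336). The lowest of the 12 differences was -0.0012 weighted by UMIs and -0.0024 with UMIs of at least 7 reads. The difference was 0.221 to 0.259 residues in the 4 spleens and 0.0267 to 0.0786 in the 4 tdLNs, so spleens and tdLNs did not overlap, and the tumors spanned 0.0412 to 0.336. For Trbv17 the median difference was 0.0992 residues. It was positive in 10 libraries (0.0484 to 0.143) and negative in the control IgG tumor (-0.543) and the αCSF1R tumor (-0.587). Once CDR3s 1 base apart were merged, the Trbv17 mean in these tumors was 13.9 and 13.7 residues, from 13.4 and 13.2, beside 14.0 and 13.8 for other clonotypes before merging.

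Trbv17 CDR3s of 11 residues were more frequent in those 2 tumors. They made up 17.8% of Trbv17 clonotypes in the control IgG tumor, 23.3% in the αCSF1R tumor, 5.40% in the IL-10-Fc tumor and 3.55% in the BF10 tumor, against 3.53% to 4.41% in the spleens and tdLNs. Of the 71 in the control IgG tumor, 24 encoded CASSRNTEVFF and 40 lay 1 base from one of these 24, with 111 UMIs between them. In the αCSF1R tumor, 7 of 27 encoded it and 14 lay 1 base away. After merging, the share of clonotypes of 11 residues was 5.28% and 8.99% in these tumors. Whether the clonotypes 1 base away arose in sequencing was not tested. By UMIs, 61.0% of Trbv17 in the control IgG tumor and 41.7% in the αCSF1R tumor had 11 residues. The control IgG tumor also had 1.75% of its Trbv17 clonotypes and 8.37% of its Trbv17 UMIs at 8 residues, the length of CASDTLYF, against at most 0.0833% of clonotypes in a spleen or tdLN.

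**Figure D4:**
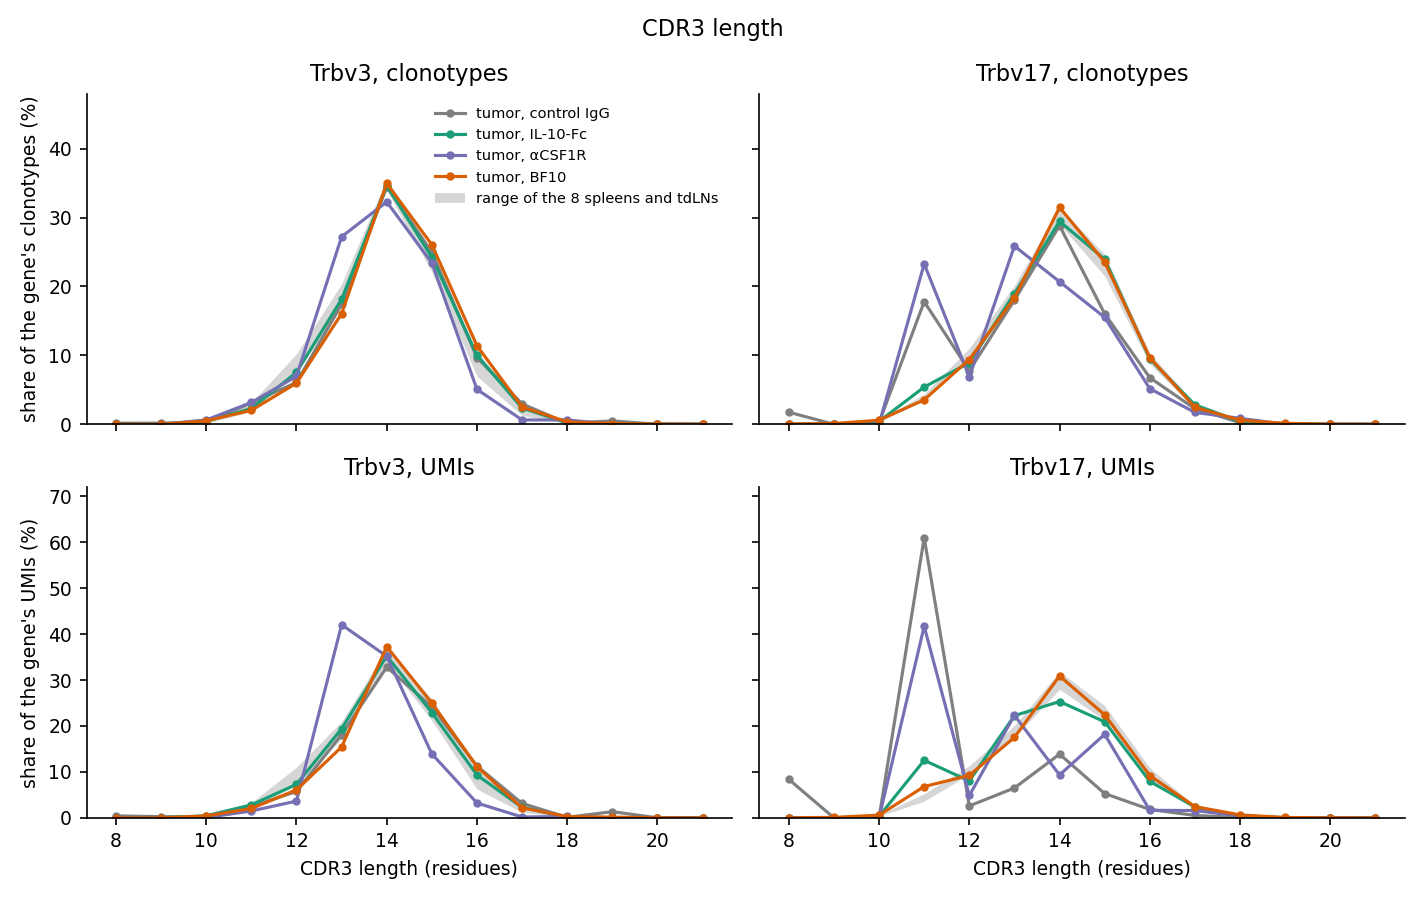
Share of each gene's clonotypes (upper row) and UMIs (lower row) by CDR3 length (x axis, residues) for the 4 tumors, with the range of the 8 spleens and tdLNs in grey. Trbv17 has a peak at 11 residues in the control IgG tumor (17.8% of clonotypes, 61.0% of UMIs) and the αCSF1R tumor (23.3% and 41.7%) that Trbv3 lacks.

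The sharing of clonotypes between tissues was compared for same and different treatments with the Morisita-Horn index, which is 0 for repertoires with no clonotype in common and 1 for identical ones. Each gene's clonotypes were rescaled to sum to 1 per library, and 3 tissue pairs were compared for each gene. All 24 pairings of the treatments of one tissue with those of the other were enumerated, which gives a one-sided exact permutation p of at least 0.0417, adjusted by Benjamini-Hochberg over the 6 tests. The pattern was already known for all TRBC clonotypes together, so the tests are not independent support for it. The libraries whose leading clonotypes were used to select the genes enter every ratio but that of Trbv17 between tumor and spleen. The other ratios are therefore given as a description, with no p.

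Between tumor and tdLN, the index of Trbv3 was 0.306 within BF10, 0.0762 within IL-10-Fc, 0.00851 within control IgG and 0.00632 within αCSF1R. The mean was 0.0992 for the same treatment and 0.00655 for different treatments, a ratio of 15.1, and each tumor was closest to the tdLN of its own treatment. Leaving out BF10 gave a ratio of 7.07, UMIs with at least 7 reads gave 7.69, and CDR3 residues without the J region gave 3.95. The ratio was 1.64 without the largest Trbv3 clonotype of each library, among them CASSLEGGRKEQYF, the leader of both BF10 libraries, and 1.12 when clonotypes were scored by presence alone. For the αCSF1R tumor, 30 of 158 Trbv3 clonotypes (19.0%), which held 58.9% of its Trbv3 UMIs, were listed in the αCSF1R tdLN. In the other tdLNs, 4.43% to 8.23% were listed. The BF10 tumor had 6.35% in its own tdLN and 3.75% to 6.07% in the others. The IL-10-Fc tumor had 4.79% in its own tdLN, below the αCSF1R (6.34%) and BF10 (6.41%) tdLNs. The control IgG tumor had 5.42% in its own tdLN, below all others (6.24% to 7.88%). The control IgG tdLN listed 6315 Trbv3 clonotypes and the others 9159 to 13297, which these percentages do not allow for. Counted against the tdLN's Trbv3 clonotypes, those shared with the control IgG tumor were 0.523% in its own tdLN and 0.361% to 0.415% in others. The αCSF1R tumor likewise had its highest such value in its own tdLN (0.226%). The IL-10-Fc and BF10 tumors had theirs in the control IgG tdLN (2.30% and 3.78%, against 2.13% and 3.28% in their own).

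For Trbv17, the same comparison gave 0.130 and 0.0791, a ratio of 1.64. Only 1 of the 4 tumors was closest to its own tdLN. The highest index joined different treatments, the BF10 tumor and the IL-10-Fc tdLN (0.409), libraries in which encoding A was the largest Trbv17 clonotype. Without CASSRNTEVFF the ratio was 13.8, given with no p because this CDR3 was chosen after its values were seen and for being listed in all 12 libraries.

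Between spleen and tdLN, the ratio was 2.15 for Trbv3 and 2.12 for Trbv17. Without the largest clonotype of each library, the ratios were 2.01 and 1.62. Each spleen was closest to its own tdLN for either gene, in some cases narrowly. For Trbv3, the IL-10-Fc spleen had an index of 0.0308 with its own tdLN and 0.0305 with the αCSF1R tdLN. For Trbv17, the control IgG spleen had 0.0168 with its own tdLN and 0.0164 with the IL-10-Fc tdLN. Between tumor and spleen, the ratio was 1.80 for Trbv3 and 1.20 for Trbv17 (exact p = 0.417, adjusted p = 0.417). The Trbv3 ratio between tumor and spleen was 0.983 without the largest clonotype of each library. An adjusted p below 0.05 required all 6 tests to reach the smallest p, 0.0417. With all clonotypes kept, not all did, so none could pass, and no conclusion is drawn from that.

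**Figure D5:**
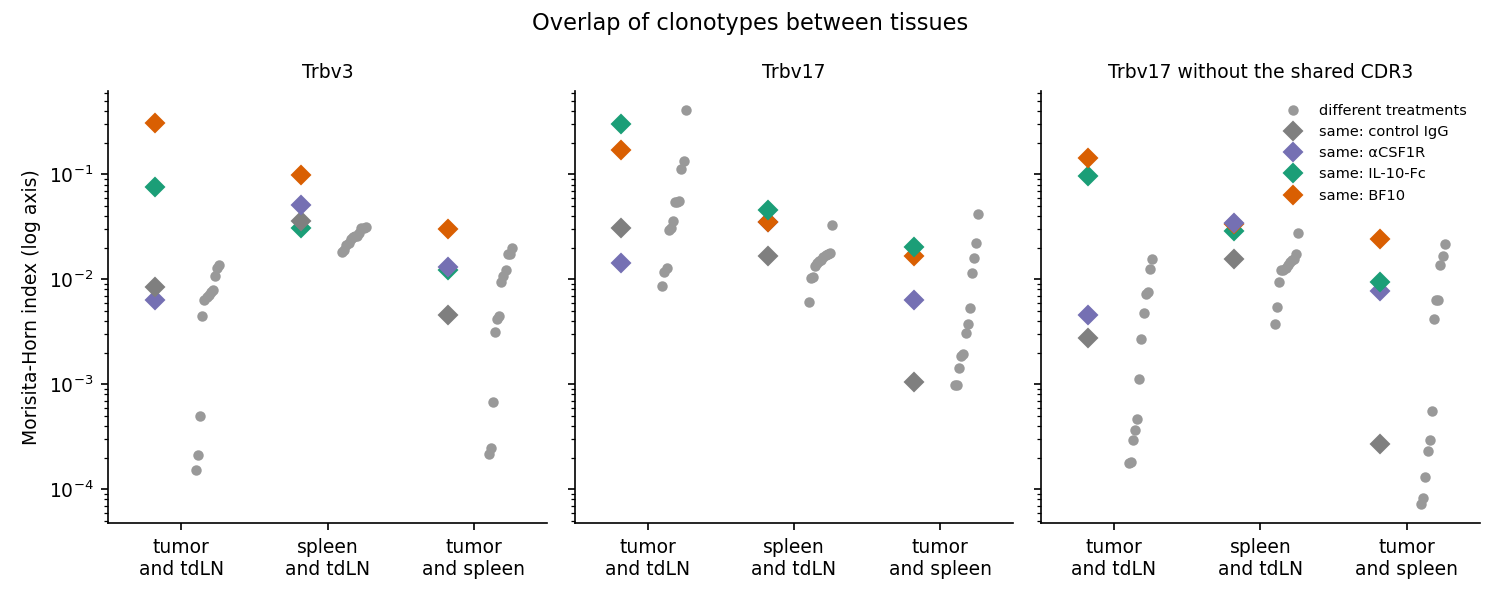
Morisita-Horn index (y axis, log scale) between libraries of 2 tissues for Trbv3, Trbv17 and Trbv17 without the CDR3 listed in all 12 libraries; diamonds are pairs of the same treatment and grey points pairs of different treatments. For Trbv17, the highest tumor and tdLN pair joins different treatments (0.409), and without the shared CDR3 the mean of the pairs of the same treatment is 13.8 times that of the others between tumor and tdLN.

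The 20 largest clonotypes of each tumor were also counted in the other tissues. Of the 20 Trbv3 clonotypes, 12 of the αCSF1R tumor, 6 of BF10, 4 of IL-10-Fc and 3 of control IgG were listed in the tdLN of the same treatment, against 0 to 4 in the tdLN of another treatment. Of the 20 Trbv17 clonotypes, 6, 8, 8 and 9 (in that order) were listed in the tdLN of the same treatment and 2 to 5 in another. Each tumor had the most of them in the tdLN of its own treatment, except the control IgG tumor for Trbv3, which had 3 in its own and 3 in the αCSF1R tdLN. In spleens the numbers were 0 to 3 for Trbv3 with the same treatment and 0 to 3 with another, and 2 to 4 and 1 to 3 for Trbv17. Sizes of the tumor libraries differed, and so did the part of each gene that the 20 clonotypes made up. They held 4.12% to 62.6% of a tumor's Trbv3 UMIs and 5.71% to 79.3% of its Trbv17 UMIs.

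Evenness within the genes followed the same tumors. At 1675 UMIs, the number of the smallest member library, Trbv3 would be seen as 158 clonotypes in the αCSF1R tumor, 515 in the control IgG tumor, 1326 in the IL-10-Fc tumor and 1459 in the BF10 tumor, and as 1413 to 1543 in spleens and tdLNs. Trbv17 would be seen as 114, 219, 1080 and 1352 clonotypes in the same tumors and 1227 to 1488 elsewhere. The 10 largest clonotypes held 75.6% of Trbv17 UMIs in the control IgG tumor and 68.9% in the αCSF1R tumor, against 11.2% and 52.8% for Trbv3, and at most 8.12% for either gene in a spleen or tdLN. In the control IgG tumor, Trbv17 was thus the more concentrated of the genes, and it also had fewer clonotypes, 399 against 609.

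Read depth per UMI varied with the library more than with the gene. UMIs seen in 7 or more reads were 50.5% of Trbv3 UMIs and 49.8% of Trbv17 UMIs in the control IgG tumor, against 49.4% of others for each. They were fewest in the αCSF1R tdLN (8.90% and 13.3%) and the BF10 tdLN (7.18% and 10.7%). With only these UMIs, the ratio of BF10 to control IgG in tdLNs was 0.846 for Trbv3 and 1.40 for Trbv17, and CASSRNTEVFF held 5.51% of TRBC UMIs in the control IgG tumor.

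By median share over the 12 libraries, Trbv3 was at position 4 of 22 TRBV genes at 7.81%, between Trbv29 (8.71%) and Trbv1 (6.04%). Trbv17 was at position 12 at 4.29%, between Trbv15 (4.35%) and Trbv14 (3.90%), and the ranges over the libraries of neighbours in this order overlapped. The genes whose UMI shares were most like that of Trbv3 over the 12 libraries were Trbv1 (Pearson r = 0.864), Trbv4 (0.831) and Trbv30 (0.771), with Spearman's rho of 0.839, 0.545 and 0.741. Without the control IgG and αCSF1R tumors, the libraries farthest from the median, r was 0.583, 0.159 and 0.729. For Trbv17 they were Trbv5 (r = 0.938), Trbv26 (0.657) and Trbv20 (0.605), with rho of 0.315, 0.175 and 0.168. Without the same tumors r was -0.247, 0.113 and -0.328, so likeness to Trbv17 rested on those libraries. Shares within a library sum to 100%, and these values are a description.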

How the data were processed

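TCR libraries of CD8+ T cells (1 per treatment and tissue, RNA of 3 mice mixed) had been made and sequenced by the authors with QIAseq chemistry, and reads were grouped by UMI and assigned to V region, J region and CDR3 in Qiagen's portal. The authors deposited UMI counts per clonotype at read minimums from 3 to 7, without normalization. The submitters' processing notes name mm10. The germline reference and error correction of the portal are not given in the sources used here.

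TRBC clonotypes assigned to V3 or V17 alone were kept, 62 of them with an undetermined residue. Shares were computed over all TRBC UMIs or clonotypes of a library, with Wilson intervals (95%), ratios with intervals on the log scale, and 3 UMIs as the floor. Germline ends came from GENCODE vM21 on GRCm38. CDR3s were compared with these from each end. A V gene was called apart at 1.5-fold with at least 100 UMIs. The Morisita-Horn index, used in the study's methods, was tested by exact permutation. Named were the clonotype with most UMIs in each library (ties by sequence), the 3 CDR3s listed in most libraries, the extreme Trbj segments, the 3 TRBV genes with the highest correlation and the neighbours in the order of shares. Genes, lists and tests were chosen with earlier results of these data known. Alternatives were 7 reads per UMI, at least 2 UMIs, merging of CDR3s 1 base apart, leaving out the largest clonotype or a treatment, equal UMIs (20 draws), residues in place of nucleotides, presence only and ambiguous V regions. The steps were tested on simulated data. Depth limited the precision most in the αCSF1R tumor, with 1675 Trbv3 and 1766 Trbv17 UMIs. The tools were matplotlib 3.10.9, scipy 1.17.1, pandas 2.3.3 and numpy 2.4.6 under Python 3.11.15. Clonotypes of other V genes and chains enter only as comparison. One nucleotide encoding is not reported here.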

Additional observations from a re-analysis of the deposited data

Results flagged for a closer look

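The share of Trbv3 in BF10 relative to control IgG lay above 1 in tumors (2.30) and below 1 in spleens (0.835) and tdLNs (0.939), with intervals that did not include 1. For Trbv17 it lay below 1 in tumors (0.474) and above 1 in spleens (1.04) and tdLNs (1.20). With 1 library per treatment and tissue, the difference between tissues was not tested. The control IgG tumor enters every tumor ratio.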

How the results depend on the processing

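Of the values recomputed for the main results, 116 kept their direction and their side of the threshold, some with a large change in size, 14 moved, 3 reversed and 3 are the Trbv17 ratios without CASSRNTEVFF below. No paired analysis was possible because treatments share no replicate number, with 1 library per treatment and tissue. For BF10 over control IgG, counting clonotypes in place of UMIs gave 1.10 (Trbv3, tumor), 0.876 (Trbv3, spleen), 0.970 (Trbv17, tumor) and 1.29 (Trbv17, tdLN). Clonotypes with at least 2 UMIs gave 2.5 (Trbv3, tumor), 0.496 (Trbv17, tumor) and, reversed, 1.01 (Trbv3, tdLN). UMIs with at least 7 reads gave 0.846 (Trbv3, tdLN) and 1.40 (Trbv17, tdLN). Leaving out the largest clonotype gave 0.561 (Trbv17, tumor), and leaving out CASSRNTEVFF, chosen after seeing the data, reversed it to 1.07. The number of TRBV genes 1.5-fold apart by clonotypes was 3 in tumors and 0 in tdLNs. For the Morisita-Horn ratios, leaving out the largest clonotypes reversed Trbv3 between tumor and spleen to 0.983, and leaving out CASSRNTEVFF, which was chosen for being listed in all 12 libraries, gave 13.8, 2.10 and 1.77 for Trbv17, with no test. The Trbv3 ratio of 15.1 between tumor and tdLN fell to 1.12 by presence only. Leaving out 1 treatment gave 7.07 to 18.5 for Trbv3 between tumor and tdLN, 1.33 to 2.54 for Trbv17 between tumor and tdLN and 1.04 to 2.35 for Trbv17 between tumor and spleen. The values without BF10 were 7.07, 2.54 and 2.35. Under 4 alternatives (at least 2 UMIs, equal UMIs, presence only, no largest clonotype) 5 of the 6 tests reached the smallest p, and their adjusted p was 0.05, which is no support for ratios that rest on the clonotypes used in selection. The causes were not tested. Shares in the αCSF1R tumor rest on the fewest UMIs.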
